A study of Mus musculus with 8 samples.

Results

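The genes of mitochondrial fatty acid oxidation described here are 10 of the 55414 genes in the count table: Cpt1a, Slc25a20, Cpt2, Acadvl, Acadl, Acadm, Hadha, Hadhb, Etfa and Etfb. They were taken by gene symbol, as a set chosen with earlier results of these data known. All 10 passed the filter on low counts. RNA had been sequenced in bulk from macrophages of mouse skin wounds, 5 libraries (a to e) from 3 days after injury and 3 libraries (a to c) from 1 day after injury. Cells of both days came from digested wound bed skin and were selected with magnetic beads against F4/80, a macrophage surface protein, and each library pooled 6 wounds from 3 mice. The protocols speak of 6 such pools at each day, of which these 8 are analysed here. No treatment other than the injury is labelled, and the strain, genotype, sex and age of the mice are not given in the sources used here. Whether pools of one day shared a mouse is not labelled, and every p-value below measures the spread between pools.

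Long-chain fatty acids enter the mitochondrial matrix as carnitine esters: Cpt1a makes the ester on the outer membrane, the carrier encoded by Slc25a20 exchanges it for free carnitine across the inner membrane, and Cpt2 returns it to coenzyme A in the matrix. The chain is then shortened in cycles, each opened by an acyl-CoA dehydrogenase for very long (Acadvl), long (Acadl) or medium (Acadm) chains, and the remaining steps on long chains are run by the trifunctional protein of Hadha and Hadhb. Electrons from the dehydrogenases pass to the electron transfer flavoprotein, a dimer of Etfa and Etfb, and from there to the respiratory chain. In macrophages the pathway is best known from studies of alternative activation, where its activity is often set against glycolysis.

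Total counts ran from 50515389 to 56661695 per library at day 3 and from 41566151 to 60289310 at day 1. Genes with at least 1 count numbered 14952 to 20557 at day 3 and 23928 to 27315 at day 1, so the breadth of detection moved with the day. The macrophage markers summed to 34105 to 44325 CPM (counts per 1000000 of the library, scaled between libraries by TMM, a trimmed mean of ratios) at day 3 and 23648 to 29472 CPM at day 1, and Adgre1, which encodes F4/80, had 994 to 1181 CPM at day 3 and 689 to 940 CPM at day 1. Markers of inflammatory monocytes summed to 3490 to 4544 CPM at day 3, against 6456 to 8283 CPM at day 1. Those of fibroblasts summed to 63.0 to 136 CPM at day 3, against 9.84 to 39.6 CPM at day 1. B and plasma cell markers were higher as well, at 20.7 to 36.1 CPM at day 3 and 1.36 to 13.4 CPM at day 1, and endothelial markers were lower, at 17.3 to 29.9 CPM at day 3 and 31.5 to 78.1 CPM at day 1. Sums for the other 8 marker lists overlapped between the days. Leaving out of each sum the marker with the widest gap between the day means, a step added after the data had been seen, kept the days apart for inflammatory monocytes and fibroblasts. They then overlapped for macrophages (without Lyz2, 17403 to 24630 CPM at day 3 and 16859 to 19575 CPM at day 1), for endothelial cells (without Kdr, 15.6 to 24.7 CPM at day 3 and 19.97 to 35.6 CPM at day 1) and for B and plasma cells (without Cd79b). Mast cell sums, which overlapped in full, stood apart without Hdc, at 0.114 to 3.96 CPM at day 3 and 4.05 to 11.5 CPM at day 1. Macrophage markers did not move together: Fcgr1 had 344 to 488 CPM at day 3 and 717 to 979 CPM at day 1, and Csf1r overlapped between the days. Of cells with high levels of these enzymes, the adipocyte markers summed to at most 3.93 CPM at day 3 and 1.80 CPM at day 1, with Pck1 at 0 in all 8 libraries. Skeletal muscle markers summed to at most 21.2 CPM at day 3 and 13.9 CPM at day 1, with Mb at 0 throughout. The part of these differences in the results below was not tested, and in bulk RNA fewer cells of a type and less RNA per cell cannot be told apart.

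No gene of the group passed the test between the days at the stated threshold, and Acadm showed the widest separation between them. The 10 members summed to 758, 683, 787, 687 and 717 CPM in day 3 libraries a to e, against 741, 614 and 550.1 CPM in day 1 libraries a to c. The day 1 a pool lay within the day 3 values and the other day 1 pools below them, and the means were 726 ± 45.3 CPM at day 3 and 635 ± 97.3 CPM at day 1 (SD, n = 5 and 3). In the edgeR quasi-likelihood test none of the 10 had an adjusted p under 0.05, against 2 of 15371 genes tested (0.013%). 1 of the 10, Acadm, had an unadjusted p under 0.05, against 15.7% of all genes tested. Acadm was also the single member called by DESeq2, which called 6.64% of all genes and 2.43% as higher at day 3, and by limma voom, which called 5.37% and 0.963% as higher. It was called too by edgeR after a stricter filter on low counts, with 1.79% of the 8142 genes left called and 0.774% called as higher. For 2 members, Acadm and Etfb, the lowest day 3 pool had more CPM than the highest day 1 pool, as for 5.31% of all genes tested, and no member had the reverse, as 8.76% of all genes did (14.1% in either direction). Day 3 minus day 1 log2 fold changes were above 0 for 7 members and below 0 for 3, with a median of 0.12 over the members and of -0.17 over all genes tested. With the stricter filter on low counts these medians were 0.15 and -0.032.

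**Figure D1:**
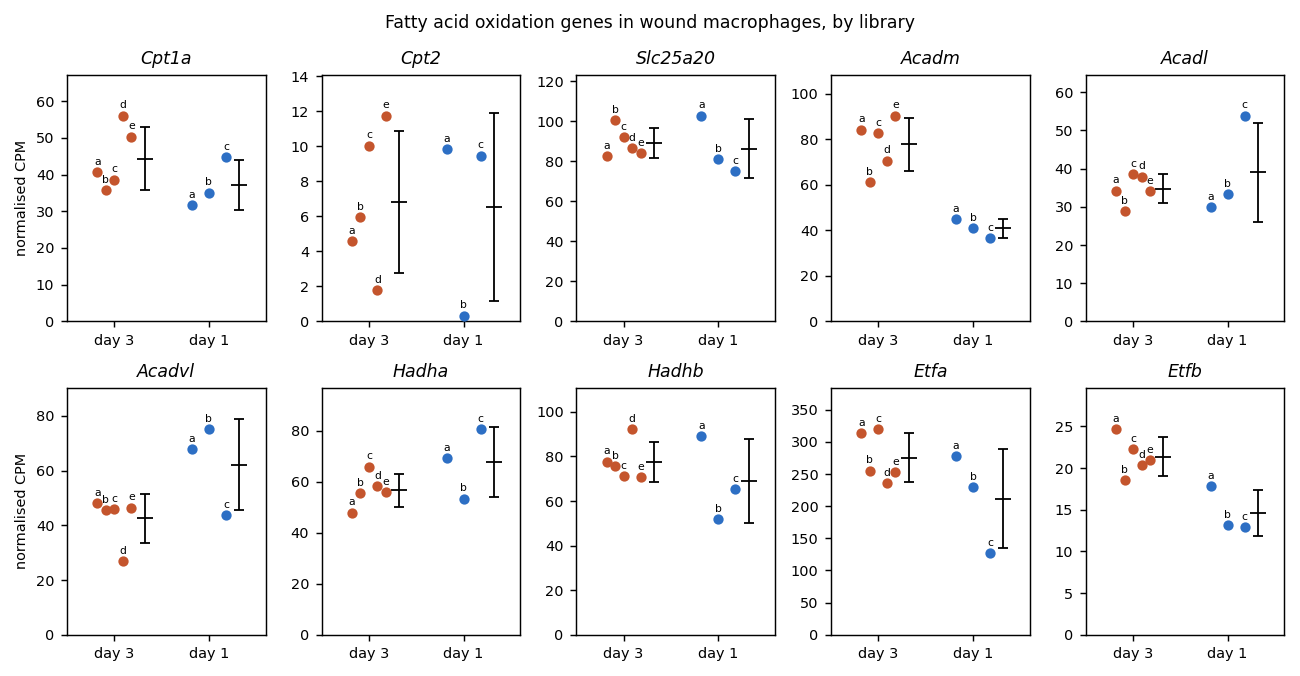
Normalised CPM of each of the 10 genes in the 5 day 3 libraries, drawn left, and the 3 day 1 libraries, a panel per gene with its own linear axis from 0, lettered points for libraries and black marks for the mean ± SD. Acadm lies between 61.3 and 90.3 CPM at day 3 and between 36.7 and 45.0 CPM at day 1, while Cpt2 spans 0.334 to 11.7 CPM over the 8 libraries.

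Medium-chain acyl-CoA dehydrogenase, encoded by Acadm, opens the cycle for chains of medium length (GRCm39 chromosome 3, 153627994 to 153650269, minus strand). It had 84.2, 61.3, 82.7, 70.6 and 90.3 CPM in day 3 libraries a to e, against 45.0, 40.9 and 36.7 CPM in day 1 libraries a to c. Every day 3 pool was above every day 1 pool. The lowest day 3 pool, b, had a neutrophil marker sum of 3681 CPM, against 448 to 668 CPM in the other day 3 pools. At day 1 those sums were 843, 2237 and 3887 CPM in libraries a to c. A link between neutrophil content and Acadm was not tested. The mean of Acadm was 77.8 ± 11.7 CPM at day 3 and 40.9 ± 4.14 CPM at day 1 (SD, n = 5 and 3). This 1.90-fold difference had a 95% interval of 1.41 to 2.57. The log2 fold change of 0.93 ± 0.19 (SE) had an edgeR p of 0.000823 and an edgeR adjusted p of 0.0829, short of the threshold. In edgeR 735 of the genes tested (4.78%) had an adjusted p under 0.1, and 1.18% were so and higher at day 3. DESeq2 gave Acadm an adjusted p of 0.000985, limma voom 0.0301 and edgeR with the stricter filter 0.0465. Leaving out 1 library at a time kept its log2 fold change between 0.86 and 1.00 with edgeR adjusted p from 0.0635 to 0.141. With the stricter filter as well, leaving out day 3 b gave an adjusted p of 0.0384 and leaving out any of the other 7 libraries gave 0.0519 to 0.124, so the call was lost without any 1 of those 7.

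The bases just upstream of Acadm and Etfb, the members whose days did not overlap, and of Hadha, which shares its upstream stretch with Hadhb, are shown from the RefSeq promoter table on GRCm38.p6, an older build than that of the counts. Each runs 5′ to 3′ on the gene's own strand and ends at the base before the annotated start. Capitals mark matches, on either strand, to AGGTCA (the core bound by many nuclear receptors, PPAR and estrogen-related receptors included), its extended form AAGGTCA, GCATGCGC (the core of the NRF1 site) and CCAAT.
Acadm, chr3:153944644-153944893, minus strand: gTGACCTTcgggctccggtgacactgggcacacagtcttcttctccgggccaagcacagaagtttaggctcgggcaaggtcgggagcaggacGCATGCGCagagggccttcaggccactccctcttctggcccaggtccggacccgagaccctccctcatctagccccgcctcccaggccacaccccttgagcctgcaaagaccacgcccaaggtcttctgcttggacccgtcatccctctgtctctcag
Etfb, chr7:43443822-43444071, plus strand: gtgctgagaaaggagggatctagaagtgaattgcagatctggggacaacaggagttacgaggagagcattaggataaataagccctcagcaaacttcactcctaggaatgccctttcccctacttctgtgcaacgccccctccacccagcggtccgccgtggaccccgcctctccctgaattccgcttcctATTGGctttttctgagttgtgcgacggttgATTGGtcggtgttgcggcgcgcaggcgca
Hadha, chr5:30154981-30155230, minus strand: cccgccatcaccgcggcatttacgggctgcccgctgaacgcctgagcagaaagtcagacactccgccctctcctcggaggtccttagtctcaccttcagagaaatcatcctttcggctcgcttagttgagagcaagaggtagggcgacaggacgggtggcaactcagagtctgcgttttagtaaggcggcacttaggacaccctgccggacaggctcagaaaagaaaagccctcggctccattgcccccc
All 10 members matched the table, and windows of 250 bases were searched in it for 32817 annotated starts in all. AGGTCA was found upstream of 3 members, Acadm, Acadvl and Cpt1a, and of 14.0% of all windows. Its extended form, which contains it, was found upstream of Acadm alone among the members, starting 249 bases before the start on the opposite strand, and in 4.08% of all windows. The direct repeat of AGGTCA with 1 base between the copies, the classical PPAR element, was in no member window and in 0.0335% of all windows. Only this exact form within the 250 bases was searched. At 11 of 32817 windows it is so rare that its absence from 10 windows does not show that these genes lack PPAR elements. GCATGCGC lay upstream of Acadm (158 bases before the start) and Etfa, and in 2.25% of all windows. CCAAT lay upstream of Cpt1a, Etfa and Etfb, and in 33.8% of all windows, while TATAAA was in no member window and in 12.4% of all. Members with AGGTCA had day 3 minus day 1 log2 fold changes of 0.93 (Acadm), 0.25 (Cpt1a) and -0.55 (Acadvl), so their signs were not all the same.

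The other acyl-CoA dehydrogenases did not share the pattern of Acadm. Acadvl, the very-long-chain enzyme of the inner membrane (chromosome 11, 69901009 to 69906237, minus strand), had 48.2, 45.5, 45.8, 26.8 and 46.5 CPM in day 3 libraries a to e, against 67.9, 75.2 and 43.6 CPM in day 1 libraries a to c. Day 3 d lay far below its group and day 1 c fell within the day 3 values, so the days overlapped. Acadvl averaged 42.6 ± 8.87 CPM at day 3 and 62.2 ± 16.5 CPM at day 1, with a log2 fold change of -0.55 ± 0.26 (95% interval -1.12 to 0.028) and an adjusted p of 0.348 in edgeR. Of its 2686 exon bases, 1151 (42.9%) are shared with Dvl2 on the other strand. The counting took no account of strand, so reads there were left out, and the level of Acadvl per length is understated by an amount that these counts do not give. Acadl, the long-chain enzyme (chromosome 1, 66869998 to 66902436, minus strand), had 28.9 to 38.5 CPM at day 3, against 29.8, 33.4 and 53.8 CPM in day 1 libraries a to c. Its highest value was in day 1 c, and leaving that pool out turned its log2 fold change from -0.17 ± 0.25 to 0.13 (edgeR adjusted p = 0.817 with all libraries, whose days overlapped).

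The balance of the dehydrogenases was read within each pool, as a description without a test. Acadm CPM divided by Acadl CPM was 2.46, 2.12, 2.15, 1.86 and 2.65 in day 3 libraries a to e, against 1.51, 1.23 and 0.682 in day 1 libraries a to c. The same quotient over Acadvl was 1.75, 1.35, 1.81, 2.63 and 1.94 at day 3, against 0.663, 0.544 and 0.842 at day 1. Neither set of quotients overlapped between the days. Per kilobase of exon, Acadm was below Acadvl in every day 1 pool and above it in every day 3 pool except b. In day 3 b Acadm had 15.7 CPM per kilobase and Acadvl 16.9. The counts miss the shared bases of Acadvl, 42.9% of its length, so its level is understated. The day 3 order of these genes is therefore not settled, while their day 1 order would stand. Both quotients carry the difference in Acadm itself and are no separate evidence of it. Acadl over Acadvl, which leaves Acadm out, ran from 0.635 to 1.41 at day 3 and from 0.440 to 1.23 at day 1 and overlapped.

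**Figure D2:**
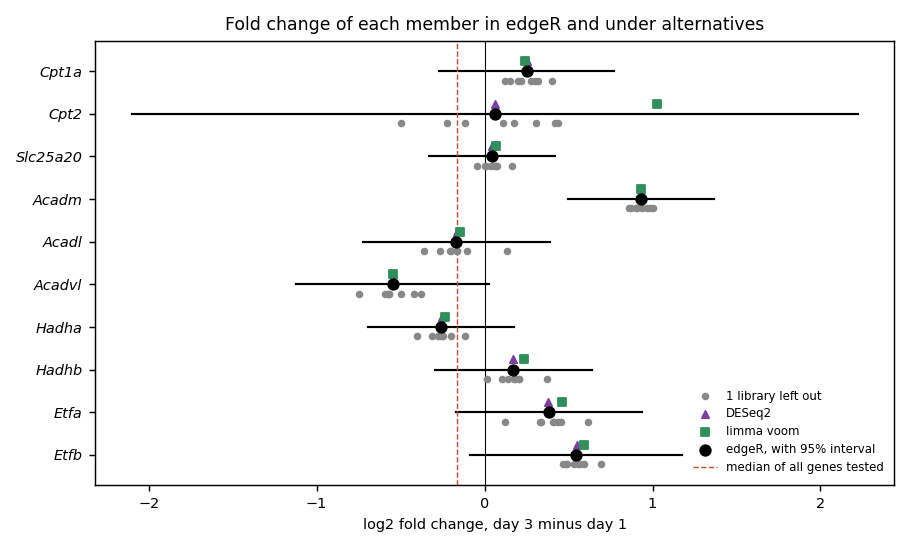
Log2 fold change, day 3 minus day 1, of each gene from edgeR, with 95% intervals as bars; smaller marks give the fits with 1 library left out and the other tools, and the dashed line the median of all genes tested. Acadm is the one gene whose interval (0.49 to 1.36) lies above 0, and the interval of Cpt2 (-2.10 to 2.22) is the widest.

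In the carnitine shuttle no member differed between the days beyond the spread of the pools. Cpt1a, the entry step and the target of inhibition by malonyl-CoA (chromosome 19, 3372334 to 3435733, plus strand), had 40.6, 35.7, 38.6, 56.0 and 50.3 CPM in day 3 libraries a to e, against 31.7, 35.1 and 44.8 CPM in day 1 libraries a to c. All 5 day 3 values were above the lower day 1 pair, and day 1 c lay among them. Its mean was 44.2 ± 8.58 CPM at day 3 and 37.2 ± 6.77 CPM at day 1, and the log2 fold change of 0.25 ± 0.23 had a 95% interval of -0.27 to 0.77 (edgeR adjusted p = 0.686). Slc25a20 (chromosome 9, 108539287 to 108561840, plus strand) had 82.6 to 100.5 CPM at day 3 and 75.1 to 102.7 CPM at day 1. Of the 10 genes it had the log2 fold change nearest to 0, 0.046 ± 0.17, and the narrowest 95% interval, -0.33 to 0.42 (0.796-fold to 1.34-fold). Leaving out day 1 c turned its log2 fold change to -0.045.

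Cpt2 (chromosome 4, 107761178 to 107780807, minus strand) was the lowest and the most uneven of the 10. Raw counts were 242, 292, 510, 104 and 616 in day 3 libraries a to e, against 390, 20 and 520 in day 1 libraries a to c, where the other members had at least 707 counts in every library. Scaled, these were 4.59, 5.94, 10.03, 1.79 and 11.7 CPM at day 3 and 9.82, 0.334 and 9.47 CPM at day 1, with both the lowest pool (day 1 b) and day 3 d far under the rest. The library of day 1 b had the highest total count of the 8. The log2 fold change of 0.061 ± 0.97 had a 95% interval of -2.10 to 2.22, and its sign depended on which library was left out (-0.50 to 0.43). In limma voom it was 1.03.

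The trifunctional protein genes lie head to head on chromosome 5, Hadha at 30323302 to 30360160 on the minus strand and Hadhb at 30360246 to 30389591 on the plus strand, with 85 bases between them. Their RefSeq starts on GRCm38.p6 are 273 bases apart, and 228 bases of the Hadha window above are also in the Hadhb window. Hadha, the subunit with the hydratase and dehydrogenase activities, had 48.0, 55.7, 66.0, 58.3 and 55.9 CPM in day 3 libraries a to e, against 69.3, 53.5 and 80.8 CPM in day 1 libraries a to c. Hadhb, the thiolase subunit, had 77.7, 75.7, 71.2, 92.3 and 70.6 CPM at day 3, against 89.0, 51.9 and 65.5 CPM at day 1. The days overlapped for both genes, and the highest pool was day 1 c for Hadha and day 3 d for Hadhb. The edgeR log2 fold changes were -0.26 ± 0.19 for Hadha (adjusted p = 0.598) and 0.17 ± 0.21 for Hadhb (adjusted p = 0.767). Hadha CPM divided by Hadhb CPM averaged 0.741 ± 0.127 at day 3 and 1.01 ± 0.228 at day 1, with 0.617 to 0.928 at day 3 and 0.779 to 1.23 at day 1, so the quotients overlapped through day 1 a.

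Both subunits of the electron transfer flavoprotein had higher means at day 3, and neither passed the test. Etfa, the alpha subunit (chromosome 9, 55361792 to 55419527, minus strand), had 313, 255, 320.0, 236 and 253 CPM in day 3 libraries a to e, against 278, 229 and 127 CPM in day 1 libraries a to c. Day 1 a stood among the day 3 pools and day 1 c far below all of them. Its log2 fold change was 0.38 ± 0.25 (95% interval -0.17 to 0.93, edgeR adjusted p = 0.526), and 0.12 without day 1 c. Etfb, the beta subunit (chromosome 7, 43093507 to 43107224, plus strand), had 24.7, 18.5, 22.3, 20.4 and 20.98 CPM at day 3, against 17.8, 13.2 and 12.9 CPM at day 1. The lowest day 3 pool (b) was above the highest day 1 pool (a) by less than 1 CPM. The 1.46-fold difference had a 95% interval of 0.943 to 2.26, a log2 fold change of 0.55 ± 0.28 and an adjusted p of 0.397 in edgeR. Of the 1164 exon bases of Etfb, 617 (53.0%) are shared with Gm45233 and 61 (5.24%) with Mir7051, which both had 0 counts in all 8 libraries. Reads on those bases were assigned to neither gene, so the Etfb counts rest on less than its full length. Etfa CPM was 11.6 to 14.3 times Etfb CPM at day 3 and 9.90 to 17.4 times at day 1. These quotients are not per length (1835 exon bases for Etfa), and reads on 58.2% of the Etfb bases were left out. They do not give the ratio of the subunits' transcripts.

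Levels were compared between genes per kilobase of exon, the length given in the count table. Etfa led at 150.2 ± 20.9 CPM per kilobase at day 3 and 115 ± 41.9 at day 1, at percentile 97.8 of all genes tested at day 3 and 97.0 at day 1. At day 3 Acadm (19.9 ± 2.98 CPM per kilobase), Slc25a20 (18.4 ± 1.51), Etfb (18.4 ± 1.98), Acadl (17.3 ± 1.91) and Acadvl (15.9 ± 3.30) followed, each with a mean ± SD that overlapped that of the next. Hadhb (11.7 ± 1.34), Hadha (6.504 ± 0.741), Cpt1a (5.79 ± 1.12) and Cpt2 (2.85 ± 1.69) came below. There Hadhb overlapped with Acadvl and Hadha with Cpt1a, while Hadhb stayed above Hadha and Cpt1a above Cpt2. At day 1 the order after Etfa was Acadvl (23.2 ± 6.16 CPM per kilobase), Acadl (19.5 ± 6.46), Slc25a20 (17.8 ± 3.00), Etfb (12.6 ± 2.39), Acadm (10.4 ± 1.06), Hadhb (10.4 ± 2.85), Hadha (7.77 ± 1.57), Cpt1a (4.87 ± 0.887) and Cpt2 (2.73 ± 2.25). The mean ± SD of neighbours in that order overlapped except between Etfa and Acadvl and between Hadha and Cpt1a. On these lengths Acadm was second at day 3 and near the middle at day 1. It was at percentile 87.0 of all genes tested at day 3 and 79.4 at day 1. The lengths include bases shared with other genes, 42.9% for Acadvl and 58.2% for Etfb, where reads were left out. Both levels are therefore understated by an unknown amount, and the place of Acadm relative to these genes is not settled. The order depends on the length used. Per kilobase of the longest principal transcript of an older annotation (GENCODE M21), a length chosen after the data had been seen, Etfa led again with 198 at day 3 and 152 at day 1. Slc25a20 followed with 49.97 CPM per kilobase at day 3 and 48.4 at day 1, and Acadm was at 38.0 at day 3 and 19.98 at day 1. On that scale Hadhb was close under Acadm at day 3, with 37.8, and above it at day 1, with 33.6. Cpt2 was last on that scale too, with 2.87 at day 3 and 2.76 at day 1.

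**Figure D3:**
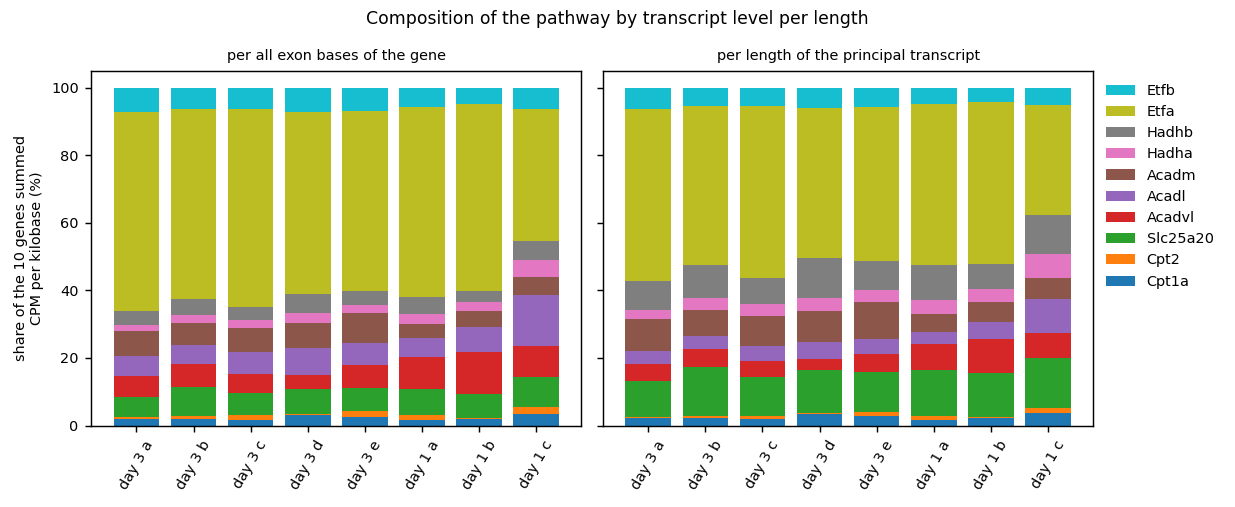
Share of each gene in the members' summed CPM per kilobase of exon, as stacked bars for each of the 5 day 3 libraries (left) and the 3 day 1 libraries, with the same per principal transcript in the right panel. On the exon scale the share of Etfa is smallest in day 1 c at 39.1%.

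Etfa made up 53.2% to 58.9% of the members' summed CPM per kilobase at day 3, against 56.2%, 55.1% and 39.1% in day 1 libraries a to c. Acadl held 15.1% of the sum in day 1 c, against 5.81% to 7.89% at day 3. Acadm held 6.32% to 8.90% at day 3 and 4.27% to 5.29% at day 1, and Acadvl 4.17% to 6.83% at day 3 and 9.15% to 12.3% at day 1, so their shares stood apart between the days in opposite directions. For Acadvl the levels themselves overlapped, with 43.6 CPM in day 1 c and 26.8 to 48.2 CPM at day 3. Its 9.15% share in day 1 c was taken of a sum in which Etfa was low. Etfa had 69.4 CPM per kilobase in that pool, against 125 to 174 in the other libraries. Among the 8 libraries day 1 c held the lowest CPM of 4 members and the highest of 2. The 37 genes encoded in mitochondrial DNA, which give a view of mitochondrial RNA content, summed to 8552 to 19413 CPM at day 3 and 4849 to 24886 CPM at day 1 and overlapped. Day 1 c was the lowest of the 8 in that sum as well.

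The wider pathway was read from 9 further lists, fitted in the same table: 116 tested genes that are no members. In edgeR none passed an adjusted p of 0.05, 5 had an unadjusted p under 0.05 and were higher at day 3 (5.16% of all genes tested) and 8 were lower (10.5% of all). DESeq2 called 5 of them higher (2.43% of all) and 2 lower (4.22% of all), and limma voom 2 higher (0.963%) and 0 lower (4.4%). The stricter filter kept fewer of these genes. With it edgeR called 0 higher (0.774% of all genes kept) and 1 lower (1.02%). The median log2 fold change was -0.071 over these genes, against -0.17 over all genes tested. The stricter filter moved the median of all genes to -0.032.

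Among the other genes of mitochondrial beta-oxidation, 2 of 18 tested had an unadjusted p under 0.05, both higher at day 3, and the median log2 fold change was 0.043. Hsd17b10, which carries out the 3-hydroxyacyl-CoA dehydrogenase step on short and branched chains, averaged 54.4 ± 4.89 CPM at day 3 and 35.5 ± 3.15 CPM at day 1, with a log2 fold change of 0.62 ± 0.18 and an adjusted p of 0.122 in edgeR and 0.0197 in DESeq2. Eci1, an isomerase needed for unsaturated chains, averaged 25.2 ± 4.69 CPM at day 3 and 12.8 ± 4.11 CPM at day 1, with a log2 fold change of 0.98 ± 0.33 and an adjusted p of 0.172 in edgeR and 0.0470 in DESeq2. Neither was called by limma voom. Cpt1b, the muscle form of the entry enzyme, had 0 counts in all 8 libraries, but 81.4% of its exon bases are shared with Gm44502, so the count does not measure it. It was picked out after its value was seen. Of the 6 other tested dehydrogenases that hand electrons to the flavoprotein, none had an unadjusted p under 0.05, as 15.7% of all genes tested did. None was called in edgeR, DESeq2 or limma voom, and the median was 0.41. Acadsb, for short branched chains, averaged 41.4 CPM at day 3 and 37.5 CPM at day 1, and Acad8, for valine breakdown, 27.2 CPM at day 3 and 21.8 CPM at day 1.

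Supply of fatty acids gave a mixed picture. In uptake and activation 1 of 14 tested genes had an unadjusted p under 0.05 and was higher at day 3 (5.16% of all genes tested). At that p 2 were lower (10.5% of all), and the median was -0.19. Dbi, the acyl-CoA binding protein that carries the activated chains, averaged 257 ± 21.3 CPM at day 3 and 156 ± 31.4 CPM at day 1. Its days did not overlap, with day 3 higher, as for 5.31% of all genes tested. Its log2 fold change of 0.72 ± 0.17 had an adjusted p of 0.0829 in edgeR, 0.00386 in DESeq2 and 0.0328 in limma voom. Slc27a4, a fatty acid transport protein with acyl-CoA synthetase activity, had 1.177, 2.64, 2.16, 1.75 and 3.96 CPM in day 3 libraries a to e, against 10.8, 10.04 and 53.0 CPM in day 1 libraries a to c. Every day 3 pool was lower, as for 8.76% of all genes tested, and day 1 c was the highest by far. The log2 fold change of -3.39 ± 0.66 had an edgeR adjusted p of 0.0766 (0.0355 with the stricter filter, 0.1004 in limma voom, and none given by DESeq2). Fabp5, a cytosolic fatty acid binding protein, averaged 165 ± 30.6 CPM at day 3 and 308 ± 169 CPM at day 1, with an adjusted p of 0.174 in edgeR.

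The list of release from droplets and lysosomes also holds genes that make triglyceride or coat droplets, so it does not measure release alone. Of its 12 tested genes 1 had an unadjusted p under 0.05 and was higher at day 3 (5.16% of all genes tested). At that p 3 were lower (10.5% of all), and the median was -0.50. Lpl, which frees fatty acids from circulating triglyceride, averaged 532 ± 268 CPM at day 3 and 204 ± 125 CPM at day 1, with an adjusted p of 0.217 in edgeR and 0.0429 in DESeq2. Dgat1, which makes triglyceride and so acts against release, averaged 25.6 ± 6.46 CPM at day 3 and 85.0 ± 67.0 CPM at day 1, with an adjusted p of 0.0836 in edgeR and 0.00658 in DESeq2. Dgat2, with the same activity, and Plin3, a droplet coat protein, were the other lower genes, at 9.25 ± 7.12 CPM at day 3 and 32.3 ± 34.1 CPM at day 1 for Dgat2 and 53.6 ± 12.1 CPM at day 3 and 82.2 ± 22.5 CPM at day 1 for Plin3. Within each day Dgat2 was highest in day 3 b and day 1 c. These pools also had the highest neutrophil marker sums of their days, 3681 and 3887 CPM, and a link was not tested. In synthesis 2 of 12 tested genes had an unadjusted p under 0.05, both lower at day 3 (10.5% of all genes tested), with a median of -0.43. Acly, which makes cytosolic acetyl-CoA from citrate, averaged 43.9 ± 8.80 CPM at day 3 and 87.0 ± 54.5 CPM at day 1. The citrate carrier gene Slc25a1 averaged 8.71 ± 2.31 CPM at day 3 and 19.9 ± 15.7 CPM at day 1. In day 1 c alone Dgat1 stood at 162 CPM, Dgat2 at 71.3, Acly at 149.8, Slc25a1 at 37.3 and Fabp5 at 502, the highest value of each over the 8 libraries. Without that pool the log2 fold change was -0.86 for Dgat1 (-1.73 with it), -0.49 for Dgat2 (-1.81), -0.34 for Acly (-0.99), -0.37 for Slc25a1 (-1.20), -0.36 for Fabp5 (-0.91) and -2.16 for Slc27a4.

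Peroxisomes shorten very long chains by their own enzymes. In the list around that pathway, not all of whose genes shorten chains, 2 of 14 tested genes had an unadjusted p under 0.05. Of these 1 was higher at day 3 (5.16% of all genes tested) and 1 lower (10.5%), and the list's median was -0.31. Scp2, a sterol carrier and peroxisomal thiolase, averaged 238 ± 20.3 CPM at day 3 and 156 ± 5.45 CPM at day 1. Its days did not overlap, with day 3 higher, as for 5.31% of all genes tested. The log2 fold change of Scp2 was 0.61 ± 0.14, with an adjusted p of 0.0829 in edgeR, 0.00152 in DESeq2 and 0.0316 in limma voom. Crat, carnitine acetyltransferase, which does not itself shorten chains, averaged 13.5 ± 3.70 CPM at day 3 and 31.99 ± 16.8 CPM at day 1 (adjusted p = 0.138 in edgeR, 0.0469 in DESeq2 and 0.133 in limma voom). Its highest value, 50.6 CPM, was in day 1 c, and without that pool its log2 fold change was -0.74 (-1.25 with it) and the edgeR adjusted p 0.398. Of 20 tested regulators none had an unadjusted p under 0.05, as 15.7% of all genes tested did. None was called by edgeR, DESeq2 or limma voom, and the median was -0.30. Pparg, a nuclear receptor of fatty acids, averaged 50.2 ± 19.6 CPM at day 3 and 26.0 ± 16.2 CPM at day 1, and Prkaa1, a catalytic subunit of AMP-activated kinase, 71.9 CPM at day 3 and 63.4 CPM at day 1. Ppara, the main activator of the pathway in liver, was too low to test, with 6 counts in all and 0 in 6 of the 8 libraries, and was picked out after its value was seen. Of 6 other tested genes commonly induced by PPAR receptors, none had an unadjusted p under 0.05 (15.7% of all genes tested). None had a call by edgeR, DESeq2 or limma voom, and the median was -0.066. Plin2, the main droplet coat protein of macrophages, averaged 3363 ± 204 CPM at day 3 and 3718 ± 1510 CPM at day 1, and Ucp2, an inner membrane carrier, 356 ± 61.9 CPM at day 3 and 430.4 ± 172 CPM at day 1. The TCA cycle, which takes up the acetyl-CoA formed, had 0 of 17 tested genes under an unadjusted p of 0.05 (15.7% of all genes tested). None of the 17 was called by edgeR, DESeq2 or limma voom, and the median of the TCA cycle was 0.12. Its leading genes by CPM per kilobase over all libraries were Sdhb, at 407 ± 55.3 CPM at day 3 and 321 ± 105 CPM at day 1, and Sdhd, at 210.3 ± 16.5 CPM at day 3 and 176 ± 21.2 CPM at day 1, both subunits of succinate dehydrogenase.

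**Figure D4:**
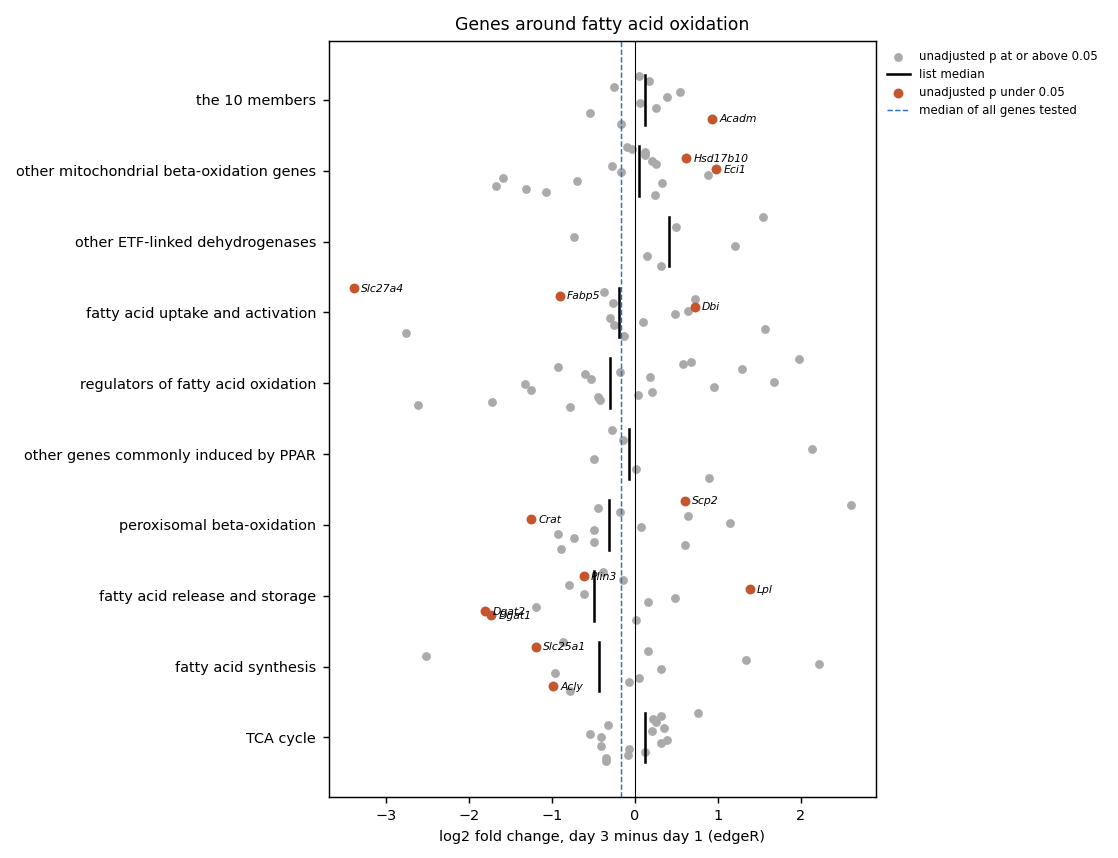
Log2 fold changes, day 3 minus day 1, of the tested genes in each list, with a point per gene, coloured where the unadjusted p is under 0.05, a black bar at the list's median and a dashed line at the median of all genes tested. The medians run from -0.50 (release and storage) to 0.41 (other dehydrogenases that pass electrons to the flavoprotein), and the 10 oxidation genes have a median of 0.12.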

How the data were processed

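The authors deposited 1 table of raw counts per gene for the 8 libraries, with no normalisation and a column of gene lengths. The counting tool was featureCounts 1.6.0 with the Ensembl 106 genes of GRCm39 and no strand option, per the file headers. The submitters' processing notes also name Trimmomatic and DESeq2; for the aligner nothing is given in the sources used here. Counts of 2 to 20 were mostly even (73.0% to 86.0% by library). The floor of detection, set at 3 counts, was 0.0498 to 0.0722 CPM, for counting error only and with no allowance for that evenness. Why the counts were mostly even was not tested, and halved counts were run as an alternative.

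Of 55414 genes, 52081 (94.0%) were given a symbol. Genes were kept with filterByExpr (minimum count 10), scaled by TMM and tested over all 15371 genes kept with edgeR (quasi-likelihood F, two-sided; Benjamini-Hochberg adjustment, threshold 0.05). Fold changes are day 3 over day 1, ± is the standard error beside a fold change and the SD beside a level, and CPM are counts per 1000000 scaled by the TMM factors. Levels per length used the length column or, as an alternative chosen after the data had been seen, the longest principal coding transcript of GENCODE M21. Alternatives were DESeq2, limma voom, RLE size factors, library totals alone, no filter, a stricter filter (a mean of 5 CPM, and 1 CPM or more in all libraries of a day), halved counts, each library left out, and libraries a to c with and without a replicate block. Promoter bases came from the RefSeq table on GRCm38.p6, and no coordinate was moved between builds.

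The members, the lists, the tests and the rule for named genes were chosen with earlier results of these data known. The rule names all 10 members and, of each other list, every tested gene with an unadjusted p under 0.05 or else its 2 most abundant per kilobase. Tests ran in edgeR 4.0.16, DESeq2 1.42.0 and limma 3.58.1 under R 4.3.3. Tables and figures were made in Python 3.11.15 with pandas 2.3.3, scipy 1.17.1, numpy 2.4.6 and matplotlib 3.10.9.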

Additional observations from a re-analysis of the deposited data

Results flagged for a closer look

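A single library lay far from the other 4 of its day for 2 of the 32 gene and day groups screened with Dixon's gap rule (a critical value of 0.71 for 5 libraries), which by chance marks about 1 group in 20. Acadvl had 26.8 CPM in day 3 d, where the other day 3 pools had 45.5 to 48.2 CPM, and its log2 fold change was -0.42 without that pool. Dgat2 had 21.7 CPM in day 3 b, where the other day 3 pools had 3.76 to 7.52 CPM. That pool also had the highest neutrophil marker sum of day 3, 3681 CPM, and a link with Dgat2 was not tested. Day 1, with 3 libraries, was not screened.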

How the results depend on the processing

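The number of genes called over the whole table, 2 in edgeR, was 1021 in DESeq2, 825 in limma voom, 1347 without a filter (of 38518 genes), 146 with the stricter filter, 46 with halved counts, 25 without day 1 a and day 3 b, and 0 to 59 with 1 library left out (31 without day 3 b, 59 without day 1 b, at most 1 otherwise). With the stricter filter it was 17 without day 3 a, 152 without day 3 b, 183 without day 1 a, 390 without day 1 b, 99 without day 1 c and 0 without each of the other 3. RLE size factors and library totals alone left it at 2. Of the 10 members, 0 were called in edgeR and 1, Acadm, in DESeq2, in limma voom, with the stricter filter (0 to 1 with a library left out) and at an adjusted p under 0.1. Acadm kept a positive log2 fold change under every alternative run, from 0.86 to 1.08.

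The median log2 fold change of the members, 0.12, was 0.010 to 0.27 with 1 library left out and 0.31 without day 1 a and day 3 b. The stricter filter moved the median of all genes tested from -0.17 to -0.032 and that of the members to 0.15. The sign of Cpt2 turned without day 3 c (-0.12, and -0.082 with the stricter filter), without day 3 e (-0.23 and -0.19) and without day 1 b (-0.50 and -0.47), in a range of -0.50 to 0.43. Without day 1 c it turned for Slc25a20 (-0.045 and -0.0063), Acadl (0.13 and 0.17, range -0.36 to 0.13), Acad8 (-0.0077, range to 0.57) and Ucp2 (0.099). For Plin2 it turned without day 1 a (0.11, range -0.44 to 0.11) and without day 1 a and day 3 b (0.099). The cause was not tested. Of 638 values of single genes under alternatives, 605 kept their direction and side of the threshold, 14 turned and 19 passed the threshold newly.

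The letters were not taken to pair the libraries. The recorded counting command names alignments with partly other letters than the deposited columns, and deviations of same-lettered libraries from their day means correlated at 0.089 (a), 0.030 (b) and -0.032 (c). In libraries a to c the replicate block gave 0 genes called, with 1343 of 14483 at an unadjusted p under 0.05, against 0 and 1660 without it. Acadm had a log2 fold change of 0.90 with the block and 0.91 without it in those libraries.

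With 3 pools at day 1 the 95% intervals are wide, and that of 9 of the 10 members includes 0. Cpt2 had as few as 20 counts in a library, while the other members had 707 or more in each. Bases shared with other genes limit Acadvl and Etfb.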
